A study of Homo sapiens with 6 samples.

Results

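Before any hormone was given, the reads of a CDK2 and of a PARP1 chromatin immunoprecipitation (ChIP-seq) were spread much alike over the genome of T47D-MTVL breast cancer cells. By an interval that covers all windows jointly, which favours windows with many reads, the clearest differences were in 10 windows of 10 kb. Of these, 8 are on a list of places held to carry nuclear copies of mitochondrial DNA. That list came from general knowledge and was not checked against an annotation. The comparison sets the CDK2 library of untreated cells against the PARP1 library of untreated cells, 2 of the 6 libraries of the series. Its members are the 263610 windows of 10 kb on the 22 autosomes with a mean of at least 10 reads over the 6 libraries, of 303641 windows in the table. Summed over 1 Mb, they gave 2679 blocks with at least 5000 reads on average.

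T47D-MTVL is a derivative of the human luminal breast cancer line T47D that carries a stably integrated reporter under the promoter of mouse mammary tumour virus. All groups were grown in hormone-stripped and then serum-free medium and were fixed with formaldehyde. The 2 libraries compared came from cells at 0 min with no R5020, a synthetic progestin. The other 4 libraries, CDK2 and PARP1 at 5 and 30 min of 10 nM R5020, serve here only to show whether a difference seen at 0 min recurs in libraries that the comparison did not use. The pairs of the 3 times share no library. There was 1 library for each antibody and time, so no value carries an error between replicates and no difference between antibodies was tested. The labels do not say whether the libraries came from separate cultures. Intervals cover counting error and the extra scatter of these libraries.

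CDK2 is a kinase that pairs with cyclins E and A and is best known for driving cells into and through DNA replication. PARP1 is an abundant nuclear enzyme that binds breaks and nucleosomes in DNA and attaches chains of ADP-ribose to itself, to histones and to other proteins. The study's question was how CDK2 takes part in switching on PARP1 after progestin, and the pair of libraries at 0 min compares the reads of both antibodies before that signal. No input library was analysed here, so binding and background coverage cannot be told apart in what the libraries share.

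The CDK2 library at 0 min held 45111064 reads and the PARP1 library 55772389. The median window held 153 CDK2 reads and 188 PARP1 reads. In the middle 90% of windows, CDK2 counts ran from 69 to 293 and PARP1 counts from 90 to 357. Of the compared windows, 13 held 0 CDK2 reads and 4 held 0 PARP1 reads. The scatter between neighbouring windows was 7.44 times that of independent reads for CDK2 and 6.12 times for PARP1. In the other 4 libraries it ran from 8.67 times, in PARP1 at 30 min, to 51.8 times, in CDK2 at 5 min.

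Each count was divided by its library's total, and the ratio of CDK2 to PARP1 was taken. Its median over windows was 0.996. The ratio lay between 0.854 and 1.16 in the middle 50% of windows and between 0.662 and 1.47 in the middle 90%. Of all windows, 66.7% lay within 1.25-fold of equality and 98.9% within 2-fold. The same share within 2-fold was 75.8% for the pair at 5 min and 86.5% for the pair at 30 min, whose libraries also scatter more between neighbouring windows. The part of that scatter in the wider ratios was not tested.

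Across windows, the CDK2 library at 0 min ranked windows most like the PARP1 library at 0 min, with a Spearman correlation of 0.844. Its correlation was 0.758 and 0.812 with the PARP1 libraries at 5 and 30 min, and 0.570 and 0.583 with the CDK2 libraries. The PARP1 library at 0 min was as close to PARP1 at 30 min (0.844) as to CDK2 at 0 min. It had 0.59 and 0.603 with CDK2 at 5 and 30 min, so those 2 libraries were least like either library of 0 min. They also had the largest scatter between neighbouring windows, 51.8 and 24.1 times that of independent reads. The part of that scatter in the correlations was not tested. The correlations describe windows, which are not replicates, and which share base composition, mappability and the copy number of the cell line. With each count divided by the median of its own window and the 20 on either side, which removes broad differences in copy number, the correlation of CDK2 with PARP1 at 0 min was 0.413. CDK2 at 0 min had 0.203 and 0.212 with CDK2 at 5 and 30 min, and 0.313 and 0.379 with PARP1. PARP1 at 0 min had 0.223 and 0.229 with CDK2 at 5 and 30 min, and 0.423 with PARP1 at 30 min.

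Chromosomes high in one library were high in the other. The median window of chromosome 12 held 1.45 times the autosomal median in CDK2 and 1.48 times in PARP1. Chromosome 3 had 1.27 and 1.29 times, and chromosome 5 had 1.25 and 1.28 times. Low chromosomes were low in both: chromosome 19 had 0.601 times in either library and chromosome 22 had 0.657 and 0.660 times. T47D is known as an aneuploid line, and copy number was not measured here.

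A window was called where the ratio was at least 2 or at most 0.5. By this rule of size, 1106 windows were higher for CDK2 (0.420% of those compared) and 1788 were lower (0.678%). Together they were 1.10% of the windows, beside 24.2% at 5 min and 13.5% at 30 min. The calls were most frequent where coverage was lowest. When windows were ranked into 10 classes of equal size by the 4 libraries outside the comparison, 2.51% of the lowest class were called higher and 3.33% lower, against 0.0455% and 0.0303% of the highest class. The median ratio stayed between 0.992 and 1.002 in all 10 classes. Most called windows had no neighbour called the same way, but 4.88% of the higher and 5.43% of the lower ones did. With 0.420% and 0.678% of all windows called and a neighbour on either side, this is more than evenly spread calls would give. The part of low coverage, where calls were most frequent, was not tested.

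The scatter of the ratio around its local level was 4.16 times that of independent reads. With both counts divided by this dispersion, the 95% interval of the ratio excluded 1 in 664 of the higher windows (0.252% of windows compared) and 1152 of the lower ones (0.437%), or 0.689% in either direction. These intervals are per window and make no allowance for the number of windows. With an interval that covers all windows jointly (Bonferroni), an alternative added after the data had been seen, 10 higher windows and 0 lower windows were left. Such an interval is wide where reads are few, so a window of ordinary depth passes it only at a large ratio. The windows left held from 395 to 38577 CDK2 reads at 0 min, where the median window held 153. Which windows were left thus depends on depth as well as on the ratio.

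The windows that were lowest for CDK2 at 0 min had ratios on either side of 1 at the later times. By the bound of the interval nearest to 1, the lowest was chr6:68340001-68350000 (all coordinates are those of hg19), with 51 CDK2 and 244 PARP1 reads before hormone, giving a ratio of 0.258 (0.127 to 0.484). At 5 min this window held 149 and 151 reads, a ratio of 0.999, and at 30 min 71 and 145 reads, a ratio of 0.775 (0.212 to 2.44). The window chr2:35240001-35250000 held 26 CDK2 and 147 PARP1 reads at 0 min (0.219, 0.0770 to 0.518). Its ratio was 0.565 at 5 min and 1.23 at 30 min. The window chr2:126580001-126590000 held 13 and 90 reads (0.179, 0.0356 to 0.585) and had ratios of 1.10 and 1.44 later. Of the 15 lower windows named by a fixed rule (lowest interval bound, at most 1 per 100 kb), 11 were below 1 at 5 min, 8 at 30 min and 5 at both, and the interval excluded 1 in none at 5 or 30 min.

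Of all 1152 lower windows past the interval, 44.8% had a ratio above 1 at 5 min and 49.1% at 30 min. Over all windows compared these shares were 46.7% and 46.8%. Of the 664 higher windows, 46.2% and 47.7% were above 1 at the later times. The windows called at 0 min thus lay above and below 1 later about as often as windows in general. They passed the fold limit in both directions more often than windows in general. Of the 664 higher windows, 13.4% were called higher and 21.8% lower at 5 min, where the shares of all windows were 7.64% and 16.5%. At 30 min 8.58% were called higher and 12.3% lower, against 3.60% and 9.86% of all windows. The 1152 lower windows gave 9.55% higher and 21.9% lower at 5 min, and 6.25% and 14.8% at 30 min.

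Of all windows, 1.36% were higher and 2.05% lower past the fold limit and the interval at 5 min (3.41% in all). At 30 min 1.46% were higher and 1.65% lower (3.11% in all). A single lower window passed the fold limit and the interval at all 3 times, chr5:94580001-94590000. Its CDK2 reads numbered 60 at 0 min, 0 at 5 min and 5 at 30 min, and its PARP1 reads 158, 163 and 126. This window is named because it was the only one of its kind, after its values had been seen.

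The 10 higher windows that passed the jointly covering interval were, by that measure, the clearest difference between the antibodies. Of these, 8 belong to a list of 13 windows at 9 places where the hg19 assembly is known to carry nuclear copies of mitochondrial DNA. Such copies are stretches of mitochondrial sequence that moved into the chromosomes, so short reads of mitochondrial and of nuclear origin can match them alike. The list was written from general knowledge of hg19, partly with earlier results of these data known, and no annotation of this build was at hand to check it. The RefSeq gene table, of another build (GRCh38.p14), was used only for names and for the number of genes per chromosome. It places MTRNR2L genes, humanin-like copies of a mitochondrial ribosomal RNA gene, on chromosomes 1, 3, 5, 6, 10, 11, 17 and 20, which the list covers. It also places such genes on chromosomes 4, 7 and 16, which the list does not cover.

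The window chr1:560001-570000 held 38577 CDK2 reads and 7561 PARP1 reads before hormone. After 5 min it held 69604 and 8954 reads, and after 30 min 38315 and 7886. CDK2 was higher at every time, with ratios of 6.31 (6 to 6.64), 7.87 (7.02 to 8.84) and 7.69 (7.02 to 8.43). Both libraries stood far above the neighbourhood there at 0 min, CDK2 511 times and PARP1 104 times the local median. The next window, chr1:570001-580000, held 1837 CDK2 and 378 PARP1 reads before hormone, giving a ratio of 6.01 (4.78 to 7.62).

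The window chr5:134260001-134270000 held 16339 CDK2 and 3691 PARP1 reads before hormone, giving a ratio of 5.47 (5.09 to 5.89). It was 6.32 (5.36 to 7.48) at 5 min and 6.35 (5.58 to 7.25) at 30 min. Its neighbour chr5:134250001-134260000 held 1916 and 529 reads (4.48, 3.67 to 5.49). Here too both libraries held an excess of reads over the neighbourhood, and that of CDK2 was the larger one. The window chr5:79940001-79950000 held 1306 and 468 reads at 0 min (3.45, 2.77 to 4.32), then 3005 and 504 after 5 min and 1376 and 587 after 30 min.

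Smaller excesses were found at 3 further windows of the list. The window chr11:10530001-10540000 held 395 CDK2 reads, 3.13 times its local median, and 157 PARP1 reads, 1.02 times its local median, a ratio of 3.11 (2.11 to 4.67). The window chr3:96330001-96340000 held 475 and 229 reads (2.56, 1.84 to 3.61), or 2.78 and 1.00 times the local median. In both of these windows PARP1 was level with its neighbourhood while CDK2 stood above its own. The window chr17:22020001-22030000 held 800 and 482 reads (2.05, 1.62 to 2.61), with both libraries above the neighbourhood, 5.88 and 2.80 times.

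The other 5 windows of the list did not reach a ratio of 2. They lay on chromosomes 6, 10, 11 and 20, with ratios at 0 min between 0.755 and 1.59. The window chr20:55930001-55940000 was the only one of the 13 below 1, with 163 CDK2 and 267 PARP1 reads (0.755, 0.494 to 1.14). Of the 13 windows, 8 (61.5%) were called higher and 0 lower, against 0.420% and 0.678% of all windows. Because the list was written partly with earlier results of these data known, this contrast may be set in part by the choice of windows.

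Together the 13 windows took 0.139% of the CDK2 reads at 0 min and 0.0259% of the PARP1 reads. The CDK2 libraries at 5 and 30 min gave 0.192% and 0.153%, and the PARP1 libraries 0.0288% and 0.0247%. The 3 CDK2 libraries were all above the 3 PARP1 libraries. Reads of the mitochondrial chromosome itself were not analysed here, and whether the reads in these windows come from mitochondria was not tested. They are not given as sites of CDK2 on nuclear DNA.

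The other 2 of the 10 windows were not in the list. The window chr5:99380001-99390000 held 886 CDK2 and 414 PARP1 reads before hormone, giving a ratio of 2.65 (2.08 to 3.39), and had ratios of 3.40 (1.93 to 6.30) and 3.86 (2.41 to 6.37) later. The window chr2:149630001-149640000 held 433 and 221 reads (2.42, 1.72 to 3.44), with 5.68 (2.55 to 14.7) and 2.75 (1.53 to 5.06) later. Whether they hold mitochondrial sequence was not examined. In all, 10 windows were higher for CDK2 past the fold limit and the interval at all 3 times, 7 of them in the list. The 3 others were these 2 and chr7:145690001-145700000, with 297 and 173 reads at 0 min (2.12, 1.43 to 3.19).

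**Figure D1:**
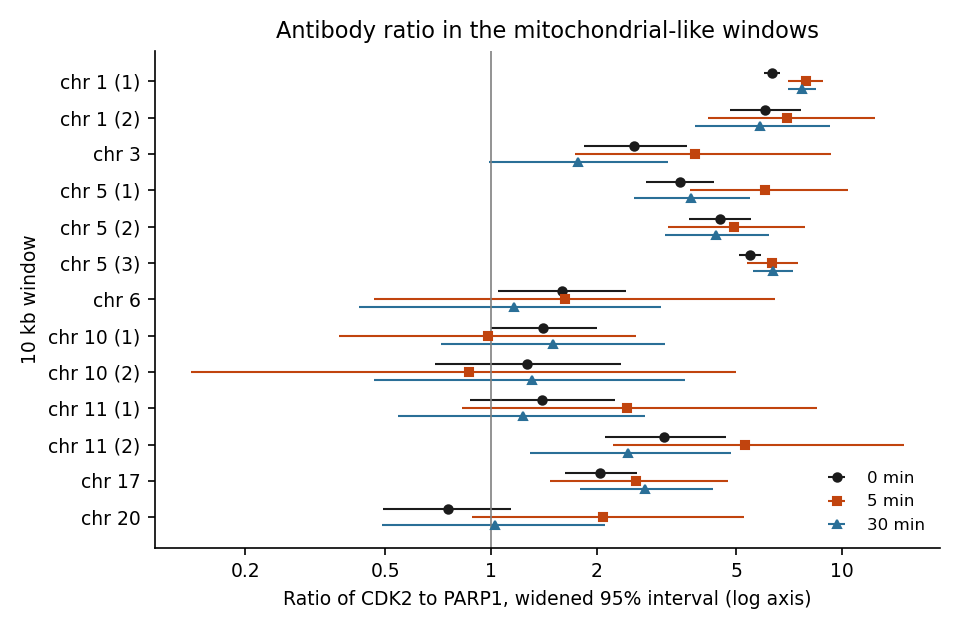
Ratio of CDK2 to PARP1 (x axis, log scale, with the 95% interval widened by the dispersion of each pair) in the 13 mitochondrial-like windows (y axis, numbered along each chromosome) at 0, 5 and 30 min. The windows of chromosome 1, at 6.31 and 6.01 before hormone, and those of chromosome 5 lie right of 1 at all 3 times, while the 5 windows under a ratio of 2 at 0 min lie on chromosomes 6, 10, 11 and 20.

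Of the 15 higher windows named by the rule, 9 lay above 1 at both later times, and the interval excluded 1 at both in 7. Among those that did not recur was chr7:108140001-108150000, with 146 CDK2 and 51 PARP1 reads at 0 min (3.54, 1.80 to 7.43). It held 149 and 137 reads at 5 min, a ratio of 1.10, and 61 and 130 reads at 30 min, a ratio of 0.742. The window chr13:98320001-98330000 had 153 and 65 reads at 0 min (2.91, 1.57 to 5.65) but 3 and 72 at 5 min. Both windows thus lay above 1 before hormone and below 1 at a later time. Why they changed sides was not tested.

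Most windows with the strongest local heaps of reads were shared. At the weakest limit fewer than most were shared, though still more than among windows in general. A window at least 3 times its local median was found 341 times for CDK2 and 349 times for PARP1 at 0 min. Of these, 294 were common to both, or 86.2% of the CDK2 windows and 84.2% of the PARP1 windows. Of all windows, 0.129% reached this limit for CDK2 and 0.132% for PARP1. At 2 times the local median the shares of all windows were 0.289% for CDK2 and 0.25% for PARP1. There 524 windows were common, 68.7% and 79.6% of the 763 and 658. The median ratio in them was 0.994, and 6 of the 524 were called higher and 0 lower, where 0.420% and 0.678% of all windows were called. All 6 were windows of the mitochondrial-like list described above, on chromosomes 1, 5 and 17. At 1.5 times the local median, CDK2 had 6972 windows and PARP1 3236, or 2.64% and 1.23% of all windows. Of these, 1279 were common, 18.3% of the CDK2 windows and 39.5% of the PARP1 windows.

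The deepest windows outside the mitochondrial list had ratios closer to 1 than those on it that were called. The window chr1:121480001-121490000, next to the centromere, held 33458 CDK2 and 40133 PARP1 reads, a ratio of 1.03 (1 to 1.06). The window chr6:58770001-58780000, also next to a centromere, held 30101 and 36589 reads, a ratio of 1.02 (0.986 to 1.05). The window chr19:27730001-27740000 had more CDK2, with 12315 and 14354 reads (1.06, 1.01 to 1.11). The window chr18:100001-110000 held 11360 and 14627 reads, with 0.960 (0.913 to 1.01). Less CDK2 was found in chr10:42380001-42390000, with 8643 and 11457 reads (0.933, 0.881 to 0.988), and in chr10:42390001-42400000, with 8374 and 11216 (0.923, 0.871 to 0.978). Small differences in both directions were thus present among them.

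A list of 6 windows at 4 places held to carry repeats related to ribosomal RNA showed the opposite direction. Ribosomal RNA genes lie in arrays that hg19 leaves out, and reads from them can collect at such copies. This list too came from general knowledge and was not checked against an annotation. It was chosen with earlier results of these data known, so its ratio may be set in part by the choice of windows. The list's reads gave a ratio of 0.861 (0.788 to 0.941) at 0 min, 0.487 (0.397 to 0.597) at 5 min and 0.619 (0.549 to 0.698) at 30 min. The window chr21:9820001-9830000 held 2096 CDK2 and 3465 PARP1 reads before hormone, giving a ratio of 0.748 (0.668 to 0.836). At 5 min it held 1640 and 5294 reads, and at 30 min 3157 and 10364. The window chr2:133020001-133030000 had more CDK2, with 1477 and 1631 reads (1.12, 0.967 to 1.3). None of the 6 windows passed the fold limit at 0 min. By the interval from the dispersion of the pair, 3 windows were clear of 1 on the lower side. They were the window on chromosome 21, chr2:133010001-133020000 (0.757, 0.619 to 0.924) and chr20:26180001-26190000 (0.681, 0.474 to 0.969). The sum of the list used the wider interval from the dispersions of both libraries. By that interval the window on chromosome 20 had 0.437 to 1.06, which includes 1, and that on chromosome 21 had 0.648 to 0.863.

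**Figure D2:**
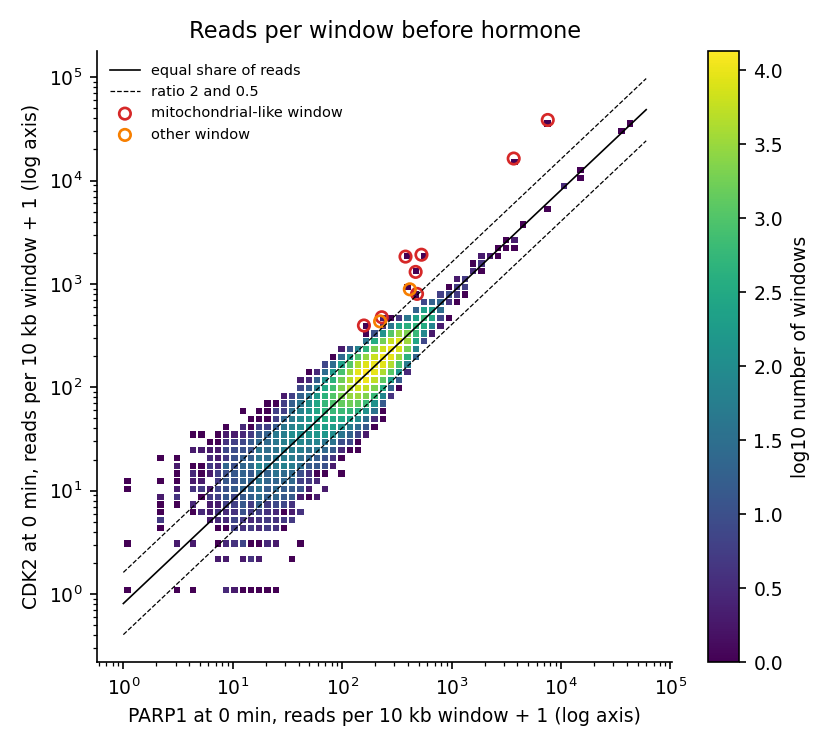
Reads per 10 kb window at 0 min, PARP1 on the x axis and CDK2 on the y axis (both counts + 1, log scales), with the colour giving the number of windows in each bin of counts. The solid line marks equal shares of reads and the dashed lines ratios of 2 and 0.5. The 10 circled windows, 8 from the mitochondrial-like list, lie above the upper dashed line, and the deepest windows next to centromeres lie near the solid line.

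Over 1 Mb the antibodies differed by little. The log2 ratio of blocks had a robust standard deviation of 0.0380 at 0 min, and the middle 68% of blocks lay between ratios of 0.974 and 1.03. Independent reads would give 0.0161, reads with the dispersion of the pair 0.0329 and reads with the dispersions of the single libraries 0.0422. The spread at 0 min thus lay above the value from the pair and below that from the single libraries. The scatter of a single library is taken between neighbouring windows. It can include differences that both libraries share and that a ratio removes, so it is a wide measure for a ratio. At 5 and 30 min the spread was 0.207 and 0.121, beside 0.0847 and 0.0685 from the scatter of the single libraries. At 10 kb the spread at 0 min was 0.333, beside 0.159 for independent reads and 0.415 for the scatter of the single libraries. The dispersion of the pair, which was itself taken from these window ratios, gave 0.324.

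The interval of a block's ratio excluded 1 on the higher side in 36 blocks (1.34%) and on the lower side in 54 (2.02%). Under scaling by the windows with the lowest means, which raises all log2 ratios by 0.00742, these became 66 and 36, so the balance of higher and lower blocks depends on the scaling. With TMM scaling they were 55 and 36. In all, 3.36% of blocks had an interval that excluded 1 at 0 min. These 95% intervals are per block and make no allowance for the number of blocks. They rest on the scatter of the single libraries, a wide measure for a ratio. The share they would leave out with no difference between the antibodies is therefore not known. The counts of higher and lower blocks at 0 min thus do not decide by themselves whether the antibodies differed over 1 Mb. At 5 min 21.7% of blocks were higher and 22.9% lower (44.6% in all), and at 30 min 14.9% and 12.6% (27.5% in all). A ratio beyond 1.1-fold in either direction was found in 6 blocks at 0 min (0.224%), in 51.4% of blocks at 5 min and in 25.1% at 30 min.

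The 2 highest blocks owed their ratio to the mitochondrial-like windows. The block chr1:1-1000000 had 42216 CDK2 and 10105 PARP1 reads and a ratio of 5.17 (4.89 to 5.46), but 1802 and 2166 reads and a ratio of 1.03 without its 2 deepest windows. The block chr5:134000001-135000000 went from 1.76 (1.68 to 1.83) to 1.03 in the same way. The block chr5:79000001-80000000 went from 1.12 (1.06 to 1.17) to 1.06.

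The highest block without such windows was chr1:54000001-55000000, with 12145 CDK2 and 13124 PARP1 reads, a ratio of 1.14 (1.07 to 1.22) that was also 1.14 without its 2 deepest windows. It had 0.886 (0.781 to 1.01) at 5 min and 1.14 (1.03 to 1.26) at 30 min. Among the named blocks, chr11:67000001-68000000 had 1.10 (1.03 to 1.17), chr11:64000001-65000000 had 1.08 (1.02 to 1.14) and chr17:7000001-8000000 had 1.09 (1.01 to 1.17), all in gene-dense bands. All 3 were below 1 at 5 min, with 0.771, 0.745 and 0.723, and above 1 at 30 min, with 1.15, 1.25 and 1.23.

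The lowest block was chr21:9000001-10000000, with 6572 and 9203 reads and a ratio of 0.883 (0.813 to 0.959). Without its 2 deepest windows, the ribosomal-like one among them, it had 0.978. The block chr11:126000001-127000000 held 23890 CDK2 and 32002 PARP1 reads (0.923, 0.883 to 0.964) and had 0.881 at 5 min and 1.10 at 30 min. The block chr20:59000001-60000000 had 0.915 (0.863 to 0.969), and chr2:80000001-81000000 had 0.913 (0.857 to 0.973). The last of these had 0.951 and 0.982 later, with intervals that included 1.

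**Figure D3:**
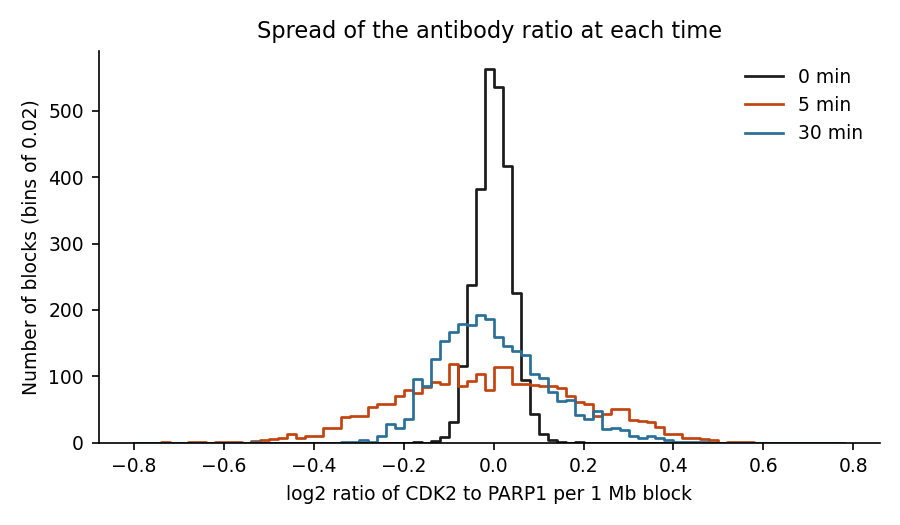
Number of 1 Mb blocks (y axis) by the log2 ratio of CDK2 to PARP1 (x axis, bins of 0.02) at 0, 5 and 30 min. The curve of 0 min is the narrowest, with a robust standard deviation of 0.0380 against 0.207 and 0.121, and 2 blocks at each time lie outside the plotted range.

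Block ratios at 0 min had little order along the genome. The ratio from the odd windows of a block and that from its even windows had a Spearman correlation of 0.150 over the 2679 blocks, and neighbouring blocks had 0.141 over 2627 pairs. The corresponding values were 0.731 and 0.690 at 5 min and 0.555 and 0.593 at 30 min. These correlations describe blocks of the same libraries and are not tests. The block ratios at 0 min had a Spearman correlation of -0.109 with those at 5 min and 0.157 with those at 30 min, while those at 5 and 30 min had -0.735. The 36 higher blocks at 0 min had a median ratio of 0.960 at 5 min and 1.04 at 30 min, and 33.3% of them were above 1 at 5 min and 66.7% at 30 min. Of the 54 lower blocks, 37.0% were above 1 at 5 min and 48.1% at 30 min. Of all blocks, 48.7% and 45.3% were above 1.

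By chromosome the ratio at 0 min ran from 0.993 on chromosome 7 (0.989 to 0.997) to 1.021 on chromosome 19 (1.011 to 1.031). Chromosome 19 is the most gene-dense human chromosome, with 24.5 RefSeq protein-coding genes per Mb here. Gene numbers were those of GRCh38.p14 and chromosome lengths those of hg19. The share of reads on chromosome 19 was 1.18% for CDK2 and 1.15% for PARP1. Chromosome 18, one of the gene-poor ones with 3.46 genes per Mb, came next with 1.010 (1.003 to 1.017). Chromosome 1 had 1.007 (1.003 to 1.010), but 0.998 without the mitochondrial-like windows. The interval lay above 1 on 3 chromosomes and below 1 on 3.

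Gene density ordered the chromosomes at the later times more than before hormone. Over the 22 autosomes, the Spearman correlation of the ratio with genes per Mb was -0.0469 at 0 min, -0.705 at 5 min and 0.727 at 30 min. Pearson's r at 0 min was 0.529, a value that rested on chromosome 19. Without that chromosome and the mitochondrial-like windows it was -0.103. On chromosomes 22 and 16, which lay well off 1 at the later times, the ratio at 0 min was 1.007 (0.995 to 1.019) and 0.996 (0.989 to 1.002).

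**Figure D4:**
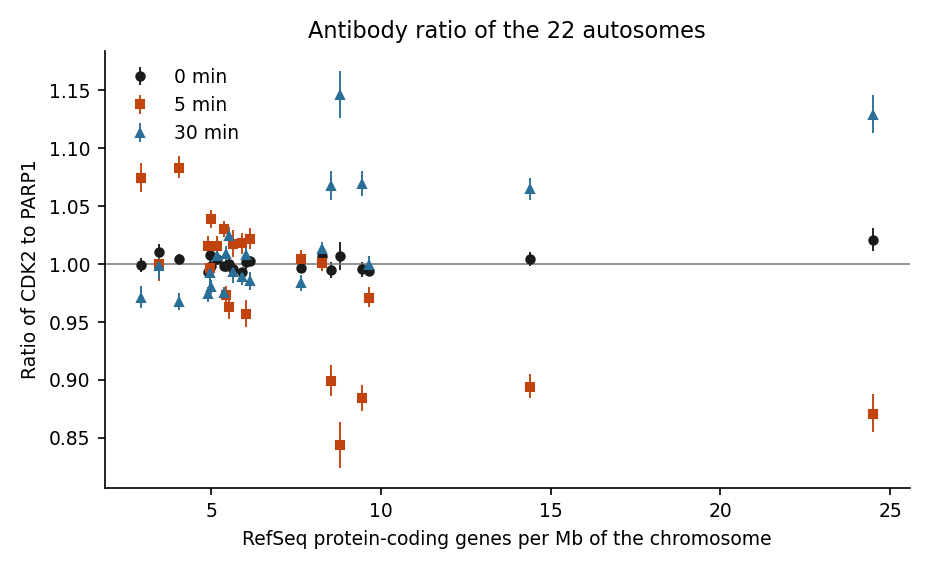
Ratio of CDK2 to PARP1 (y axis, with the 95% interval widened by the dispersions of both libraries) of the 22 autosomes against RefSeq protein-coding genes per Mb (x axis) at 0, 5 and 30 min. The points of 0 min lie between 0.993 and 1.021, and those of 5 and 30 min spread from 0.844 to 1.083 and from 0.967 to 1.146.

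Groups of regions known in hg19 at a resolution of 1 Mb, again from general knowledge, were compared by the ratio of their summed reads. In 20 gene-dense bands the ratio at 0 min was 1.03 (1.03 to 1.04) and, without the mitochondrial-like windows, 1.01 (1.01 to 1.02). In 20 gene-poor bands it was 0.995 (0.991 to 0.999). The direction in the gene-poor bands rests on the scaling, since it was 1.000 under scaling by the lowest windows. At 5 min the gene-dense bands, without those windows, had 0.817 (0.808 to 0.826) and the gene-poor bands 1.17 (1.16 to 1.18). At 30 min they had 1.15 (1.14 to 1.16) and 0.931 (0.925 to 0.937).

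Single gene-dense bands were close to 1 before hormone. Of the 20, the interval lay above 1 in 4 and below 1 in 1. The first 2 Mb of chromosome 1 had 3.23 with the mitochondrial-like windows and 1.04 (0.970 to 1.12) without them. The others above 1 were 64 to 69 Mb on chromosome 11, the first 8 Mb of chromosome 17 and the first 8 Mb of chromosome 19, each with 1.04. The band of 60 to 63 Mb on chromosome 20 was lower, with 0.964 (0.930 to 0.999). Among the gene-poor bands, 67 to 72 Mb on chromosome 7 had the lowest ratio, 0.969 (0.948 to 0.990).

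Gene clusters gave ratios near 1 as well. The histone gene cluster on chromosome 6, which supplies the histones made in S phase, had 31719 CDK2 and 37392 PARP1 reads, a ratio of 1.05 (1.01 to 1.09). Of its 188 windows, 4 were called higher and 1 lower by the fold limit (2.66%, against 1.10% of all windows). With the interval as well, 0 passed, where 0.689% of all windows did. It had 0.920 (0.850 to 0.996) at 5 min and 1.00 (0.941 to 1.07) at 30 min. The major histocompatibility complex had 1.02 (0.993 to 1.05), the zinc finger clusters of chromosome 19, which code for KRAB repressors, 1.01 (0.991 to 1.03), and the 4 HOX clusters of developmental transcription factors 0.998 (0.976 to 1.02). The olfactory receptor clusters, arrays of genes silent outside the nose, had 0.986 (0.969 to 1.00). The keratin clusters, which hold the epithelial filament genes, had 0.994 (0.967 to 1.02) and the protocadherin cluster of chromosome 5 had 0.988 (0.944 to 1.03).

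Very long genes were covered alike. The blocks of 13 of them had a joint ratio of 0.998 (0.989 to 1.01) and single ratios between 0.955 and 1.02. The lowest was that of RBFOX1, a neuronal splicing regulator, with 30911 CDK2 and 39999 PARP1 reads (0.955, 0.919 to 0.993). The blocks of FHIT and WWOX, which span the common fragile sites FRA3B and FRA16D, had 1.01 (0.975 to 1.05) and 1.00 (0.965 to 1.04). In the 2 Mb next to the longest stretch without reads on each chromosome, which in most marks the centromere, the ratio was 0.995 (0.988 to 1.00). In the last 2 Mb of chromosome arms it was 1.01 (0.998 to 1.01) without the mitochondrial-like windows.

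**Figure D5:**
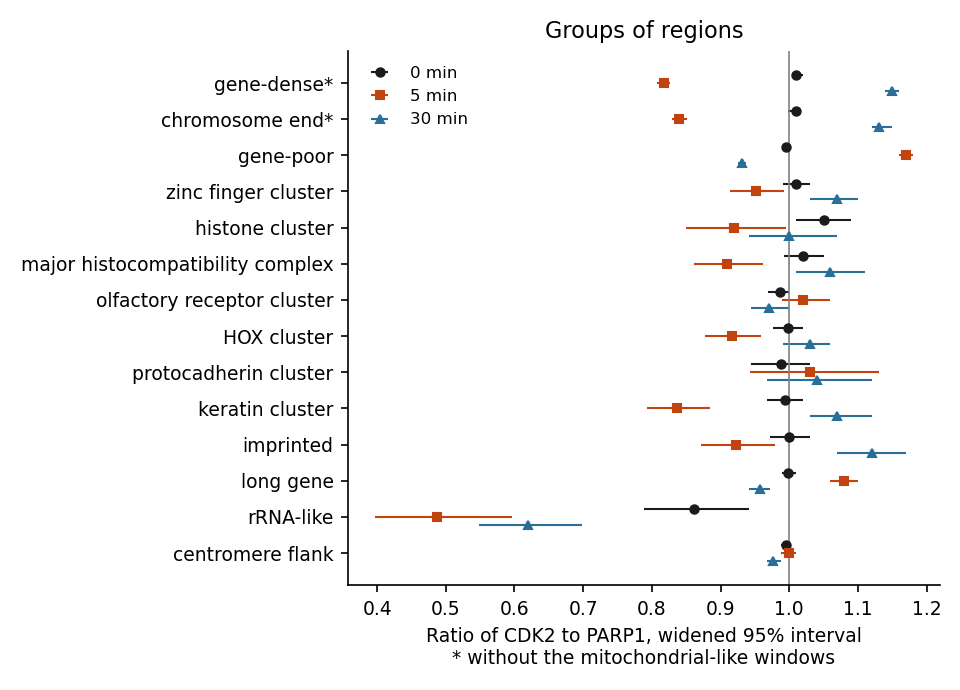
Ratio of CDK2 to PARP1 (x axis, with the 95% interval widened by the dispersions of both libraries) in groups of regions (y axis) at 0, 5 and 30 min. The mitochondrial-like windows, at 5.35, are not plotted, and they are left out of the groups marked with an asterisk. At 0 min the plotted groups other than the rRNA-like windows, at 0.861, lie between 0.986 and 1.05.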

How the data were processed

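ChIP-seq reads were counted in 6 libraries. The values are read counts in 10 kb windows, deposited by the authors as whole numbers without normalization. The submitters' processing notes name Bowtie 1.0.0 and the build hg19 (GRCh37). How duplicates and multiple matches were handled was not given in the sources used here. Library totals lay between 40097131 and 63448449 reads. Duplicate reads, where kept, would make the intervals too narrow.

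Ratios were scaled by totals. Two-sided 95% intervals of window ratios are Clopper-Pearson, conditional on the sum, on counts divided by the pair's dispersion; those of sums are log-normal with both libraries' dispersions. The scripts were tested on simulated data. Python 3.11.15, numpy 2.4.6, scipy 1.17.1, pandas 2.3.3, matplotlib 3.10.9 and R 4.3.3 were used, with edgeR 4.0.16 and DESeq2 1.42.0 for scaling factors only. Named were the 15 higher and 15 lower windows and the 10 higher and 10 lower blocks whose interval bound lay farthest from 1. Members and lists were chosen with earlier results of these data known. No genome or annotation of hg19 was at hand, so no window was tied to a gene and no sequence is given. Chromosome X was left out.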

Additional observations from a re-analysis of the deposited data

How the results depend on the processing

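With 1 library per antibody and time, no library could be left out in turn. No paired analysis was possible because each group held a single library. Depth limits the ratio in windows of low coverage. The count of called windows followed the limits set. At a mean of at least 50 reads, 708 windows were higher. With no filter beyond 1 read in either library, 2123 were higher and 3028 lower. At a fold limit of 1.5, 10930 were higher and 13846 lower, of which 4713 and 5383 passed the interval, and at 3 there were 157 and 238, of which 37 and 73 passed it. The interval of joint coverage, added after the data had been seen, left 10 higher and 0 lower. Higher blocks numbered 55 with TMM and 66 when scaled on windows of low mean. The median of window ratios gave 72 higher and 121 lower blocks.

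The scalings moved all log2 ratios by 0.00513 to 0.00742, which matters for values close to 1. With TMM, chromosome 1 had 1.011 and chromosome 3 had 1.002, as it had with DESeq2 factors. Scaling on windows of low mean gave 1.012 on chromosome 1, 1.009 on chromosomes 2 and 4, 1.003 on chromosomes 3, 5 and 10, 1.008 on chromosome 6, 0.998 on chromosomes 7 and 8, 0.999 on chromosome 11 and 1.002 on chromosome 12, and turned the gene-poor bands to 1.000. Without the 1% of deepest windows, chromosome 1 turned to 0.997 and chromosome 5 had 0.994, the gene-dense bands 1.011, the chromosome ends 1.005, the mitochondrial-like windows left 1.686 and the rRNA-like ones 0.681. Without the mitochondrial-like windows, an alternative added later, chromosome 1 turned to 0.998, and chromosome 5 had 0.994, the gene-dense bands 1.011 and the chromosome ends 1.005. The median window gave 1.007 in the gene-dense bands, 2.564 in the mitochondrial-like windows and 1.002 at chromosome ends. The cause of these changes was not tested beyond what was left out. All 90 values of named windows under the 3 other scalings stayed within their intervals.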

Other observations

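Chromosome X, which is outside the comparison, had a CDK2 to PARP1 ratio of 1.008 over 14785 windows at 0 min. Of these, 314 windows were called higher and 506 lower, 5.55% in all, against 1.10% of the autosomal windows compared. In the autosomal class of lowest coverage, 2.51% were called higher and 3.33% lower. Chromosome X was not compared with autosomal windows of equal coverage, so its share of calls is not given as a difference between the antibodies.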
